A study of Mus musculus with 23 samples.

Results

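The circadian clock of the small intestine was followed through 10 genes: Dbp, Per1, Per2, Per3, Nr1d1, Nr1d2, Ciart, Arntl, Npas2 and Cry1. They were taken by symbol from the 55416 gene rows of RNA-seq count tables, and all 10 were found. Of these, 9 passed the filter on low counts and were among the 13405 genes tested, and Ciart did not pass. Libraries came from mucosal scrapings of the proximal small intestine, 1 per mouse, from C57BL/6JRccHsd mice labelled female and aged 42 days. From day 21 the mice ate either the GAL42 diet, with 16% of energy as galactose and 16% as glucose (12 mice), or the GLU42 diet, with 32% of energy as glucose and no added galactose (11 mice). The diets were otherwise the same, and feeding lasted 3 weeks. The labels give no hour of death and no lighting schedule.

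The clock of mammalian cells is a loop in which the activators ARNTL (also called BMAL1) and CLOCK, or NPAS2 in place of CLOCK, bind E-boxes in DNA and switch on genes that include the Per and Cry genes. PER and CRY proteins then block the activators, while NR1D1 and NR1D2 (REV-ERB alpha and beta) repress Arntl and Npas2 through ROR elements. Dbp, Per and Nr1d genes therefore peak at another time of day than Arntl and Npas2, and the balance between both sets is a commonly used reading of clock phase. The gut epithelium carries such a clock, which in rodents runs with feeding time and accompanies daily rhythms in nutrient transporters.

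The binding motifs of this loop were searched in RefSeq promoter windows of build GRCm38.p6, from 250 bases before to 50 bases after each gene's start. Of the 10 members, 9 had a window, and Per2 had none. The motifs were the E-box CACGTG, its variant CACGTT, the D-box TTATGTAA bound by DBP and its relatives, the nuclear receptor motif AGGTCA, and the ROR element, each searched on both strands. The ROR element as searched ends in AGGTCA or GGGTCA. Only a match with the first ending, such as that of Arntl, is also a match of AGGTCA. The promoters shown are those with an E-box or a D-box upstream of the start. Each gives the 250 bases before the start on the gene's own strand, 5′ to 3′, with the matches in capitals. Per1 lies on the plus strand at chr11:69098699-69098948, Per3 on the minus strand at chr4:151044666-151044915, Ciart on the minus strand at chr3:95882229-95882478 and Cry1 on the minus strand at chr10:85185055-85185304.
Per1: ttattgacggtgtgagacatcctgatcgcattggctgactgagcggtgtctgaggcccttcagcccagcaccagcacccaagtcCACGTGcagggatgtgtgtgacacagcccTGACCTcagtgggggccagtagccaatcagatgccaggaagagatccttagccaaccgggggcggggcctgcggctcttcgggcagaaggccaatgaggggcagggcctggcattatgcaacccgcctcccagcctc
Per3: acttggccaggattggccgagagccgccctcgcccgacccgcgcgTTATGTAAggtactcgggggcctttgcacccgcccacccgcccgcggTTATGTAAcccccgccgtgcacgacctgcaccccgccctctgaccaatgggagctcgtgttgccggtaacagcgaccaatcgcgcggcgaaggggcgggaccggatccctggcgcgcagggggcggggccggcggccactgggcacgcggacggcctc
Ciart: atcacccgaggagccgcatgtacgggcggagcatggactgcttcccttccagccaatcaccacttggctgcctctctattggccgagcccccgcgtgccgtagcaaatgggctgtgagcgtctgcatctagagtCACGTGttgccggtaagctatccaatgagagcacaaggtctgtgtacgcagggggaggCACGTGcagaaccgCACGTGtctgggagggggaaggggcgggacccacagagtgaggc
Cry1: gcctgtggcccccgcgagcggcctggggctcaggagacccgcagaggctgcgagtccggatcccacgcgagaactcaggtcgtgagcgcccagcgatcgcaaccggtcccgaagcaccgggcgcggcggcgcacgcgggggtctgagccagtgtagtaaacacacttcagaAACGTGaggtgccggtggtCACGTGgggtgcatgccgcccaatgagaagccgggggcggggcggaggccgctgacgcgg
The windows of Dbp and Npas2 held no match of any of these motifs. The E-box was found in Per1, Cry1 and, with 3 matches, Ciart, that is in 3 of the 9 members with a window. Of 32851 promoter windows of the same length, 7.15% held it. Per1 also held AGGTCA on the other strand, printed as TGACCT. Cry1 held the variant on the other strand, printed as AACGTG, and Nr1d1 held it as well, against 4.68% of all windows. Per3 had 2 D-boxes, at positions -205 and -158 from the start, a motif present in 0.938% of all windows. A stretch of Arntl downstream of its second annotated start, on the plus strand at chr7:113207527-113207556, is shown because it carries the ROR element, in capitals, which 0.384% of all windows hold.
Arntl: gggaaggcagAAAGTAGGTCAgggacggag
AGGTCA itself was found in Per1, Nr1d2 and this Arntl window, against 16.3% of all windows. These matches describe letters in a window and are not evidence of binding in these mice.

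Libraries held 15382583 to 17174721 counts in genes, 16217808 ± 484497 on GAL42 and 16456054 ± 570744 on GLU42 (SD). Enterocyte markers were abundant, with a summed level of 56891 to 76384 CPM (counts scaled to library size by TMM and given per 1e6 counts) in GAL42 libraries and 52980 to 82442 CPM in GLU42 libraries. Smooth muscle markers summed to 40.0 to 112 CPM in GAL42 libraries and 38.6 to 164 CPM in GLU42 libraries. GAL42 replicate 2 carried 588 CPM of 8 pancreatic acinar genes, against at most 4.34 CPM in the other 22 libraries, and GAL42 replicate 12, labelled female, held 225 counts of 4 Y-linked genes, against at most 1 in any other library.

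Across mice the 10 genes fell into 2 sets that moved in opposite directions. Dbp, Per1, Per2, Per3, Nr1d1, Nr1d2 and Ciart tended to be high in the same libraries, and Arntl, Npas2 and Cry1 to be low there. By Pearson's r, 41 of the 45 pairs of members were correlated past the threshold, and fewer were by Spearman's rho. How many pairs of other genes would pass was not computed, so the count has no background to be read against. The 23 mice were spread along this axis, with Dbp differing 70.0-fold between the lowest and the highest library. No member differed between the diets beyond the spread between mice.

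Dbp encodes a PAR-type bZIP transcription factor that binds D-boxes and is a direct output of the clock. In GAL42 libraries its CPM had a lowest value of 1.57, a median of 11.2 and a highest value of 91.3, and in GLU42 libraries 1.30, 12.9 and 32.95. Replicates 7 and 8 of GAL42, at 91.3 and 75.0 CPM, stood above every other library, while the other 10 GAL42 libraries reached 20.04 CPM at most and 3 GLU42 libraries, at 20.2, 28.7 and 32.95 CPM, lay above those. Per1, which encodes a repressor of the loop that is also induced by glucocorticoids, had 4.14, 11.5 and 23.3 CPM (lowest, median, highest) in GAL42 libraries and 5.47, 9.63 and 16.4 CPM in GLU42 libraries. Per2, a core repressor, had 5.30, 7.10 and 27.1 CPM in GAL42 libraries and 4.17, 8.33 and 13.8 CPM in GLU42 libraries. Per3, a paralog that is not needed for the loop itself, had 0.329, 2.59 and 11.5 CPM in GAL42 libraries and 1.51, 2.86 and 6.63 CPM in GLU42 libraries. All 3 Per genes overlapped between the diets, with a wider range in CPM on GAL42. Without replicates 7 and 8, the highest GAL42 values were 17.0 CPM for Per1, 10.6 CPM for Per2 and 3.45 CPM for Per3. For Per2 and Per3 these lay below the highest GLU42 values.

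The REV-ERB genes varied less than Dbp. Nr1d1 had 212, 291 and 414 CPM in GAL42 libraries and 189, 288 and 411 CPM in GLU42 libraries, a 2.19-fold range over all mice. Nr1d2 had 19.0, 35.4 and 70.6 CPM in GAL42 libraries and 18.6, 38.9 and 51.0 CPM in GLU42 libraries. The groups overlapped almost completely for both. Ciart, which encodes a further repressor of ARNTL and CLOCK, was near the limit of detection, with 0 to 20 reads per library. Its 2 highest counts, 19 and 20, were in GAL42 replicates 7 and 8, the libraries with the most Dbp. It had 0, 0.259 and 1.29 CPM in GAL42 libraries and 0, 0.232 and 0.411 CPM in GLU42 libraries.

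Among the genes on the other side of the loop, the activator Arntl had 11.9, 42.3 and 68.6 CPM in GAL42 libraries and 20.9, 38.6 and 79.2 CPM in GLU42 libraries. Npas2, its alternative partner, had 46.2, 86.8 and 130.2 CPM in GAL42 libraries and 56.0, 103.0 and 145 CPM in GLU42 libraries. Cry1, a repressor whose transcript peaks later than the Per genes in many mouse tissues, had 8.99, 11.6 and 19.6 CPM in GAL42 libraries and 8.52, 13.3 and 24.0 CPM in GLU42 libraries. For each the groups overlapped, and GAL42 replicates 7 and 8 held the lowest Arntl.

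**Figure D1:**
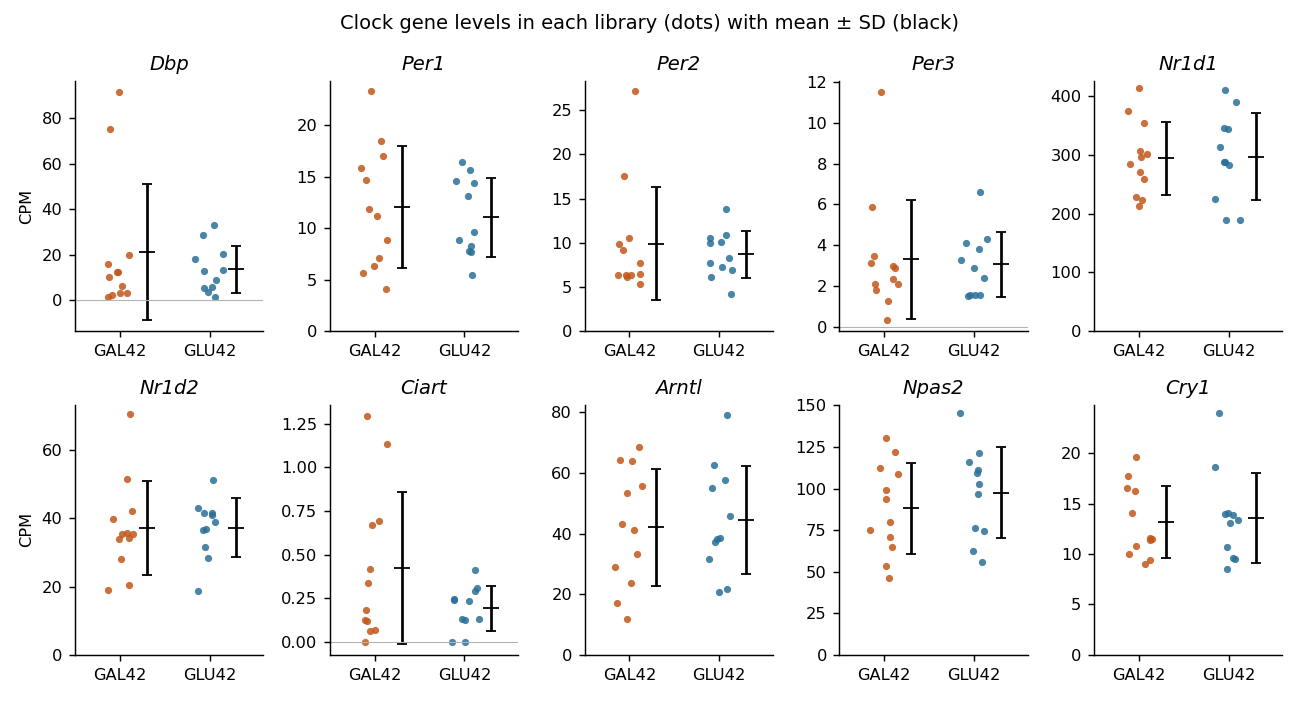
CPM of each of the 10 clock genes in every library (vertical, linear axis from 0), GAL42 left and GLU42 right, with 1 dot per mouse and the mean ± SD in black; Dbp spans 1.30 to 91.3 CPM while Nr1d1 spans 189 to 414 CPM, and the diets overlap for every gene.

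The spread between mice was set against that of other genes by edgeR's biological coefficient of variation, the fraction by which the true level of a gene varies between mice of a diet. It was 91.8% for Dbp, more than for 99.8% of the tested genes, whose median was 15.6%. Per3 reached 58.1%, Arntl 41.3%, Per1 39.4% and Per2 39.2%, each above 95.4% or more of all tested genes. Nr1d2 at 27.98%, Npas2 at 27.6%, Cry1 at 26.1% and Nr1d1 at 21.7% lay between 69.5% and 82.9% of the way up that order. Dbp and Nr1d1 share bases with neighbours on the opposite strand in the GENCODE M21 annotation, and the strand setting of the counting is not given in the sources used here. Sphk2 covers 18.0% of the exonic bases of Dbp, and Thra covers 8.55% of those of Nr1d1. Sphk2 itself held 2339 to 3937 reads per library and Thra 2199 to 2795, while Dbp held 20 to 1532 and Nr1d1 2901 to 6995. Whether reads of these neighbours entered the values of Dbp and Nr1d1 was not tested.

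The opposition between the 2 sets was measured by correlating log2 CPM (prior count 2) over the 23 libraries, with 100000 permutations and Benjamini-Hochberg adjustment over all 45 pairs of members. Dbp and Arntl had an r of -0.91 and a rho of -0.91, with an adjusted p of 5e-05, where 1e-05 is the smallest raw p the permutations can give. Leaving out the 2 libraries farthest from the Dbp median gave an r of -0.90, and leaving out GAL42 replicates 7 and 8 gave -0.87. The relation held within each diet, at -0.94 in GAL42 libraries and -0.86 in GLU42 libraries. Dbp and Npas2 had an r of -0.82 and a rho of -0.78, with -0.92 in GAL42 libraries and -0.71 in GLU42 libraries.

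Each Per gene ran against both activators as well. Per2 had an r of -0.83 with Arntl (rho -0.78) and -0.76 with Npas2 (rho -0.66). Per3 had -0.72 with Arntl (rho -0.73) and -0.62 with Npas2 (rho -0.61), and Per1 had -0.68 with Arntl (rho -0.71) and -0.68 with Npas2 (rho -0.71). All 8 pairs of Dbp or a Per gene with an activator passed the adjusted threshold of 0.05 over the 23 libraries, over the 12 GAL42 libraries alone, and without the 2 libraries farthest from the median of the pair's Dbp or Per gene, which differ by gene, where r lay between -0.90 and -0.58. Over the 11 GLU42 libraries alone, 3 of the 8 passed, namely Dbp with both activators and Per3 with Arntl. Per1 and Arntl had an r of -0.43 there, with an adjusted permutation p of 0.286, and -0.80 in GAL42 libraries.

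Of the 45 pairs, 41 passed by r, 21 with a positive and 20 with a negative r. The share of all gene pairs that would pass was not computed. Over the 23 libraries, the 21 pairs within the Dbp set all had a positive r, and the 21 pairs across the sets a negative r. The 3 pairs among Arntl, Npas2 and Cry1 had r between 0.77 and 0.95. The strongest positive relation was that of the partners Arntl and Npas2, at 0.95, and Dbp and Nr1d2 had 0.90. The 4 pairs that did not pass by r were Per1 with Nr1d1 (0.16), Per1 with Nr1d2 (0.38), Per1 with Ciart (0.37) and Ciart with Cry1 (-0.33). By rho, Ciart with Per2, Per3, Arntl and Npas2 did not pass either (adjusted permutation p = 0.0985, 0.0616, 0.0558 and 0.0963). Ciart and Arntl had an r of -0.57, and of -0.27 without GAL42 replicates 7 and 8. Not every sign held within a diet. Per1 and Nr1d1 had an r of -0.27 in GLU42 libraries and 0.50 in GAL42 libraries. For Per1 and Nr1d2, r was 0.03 (rho -0.23) in GLU42 libraries and 0.55 in GAL42 libraries. In bulk tissue, fewer cells of a type and less RNA per cell cannot be told apart, and correlated genes of a library share its depth and its scaling.

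**Figure D2:**
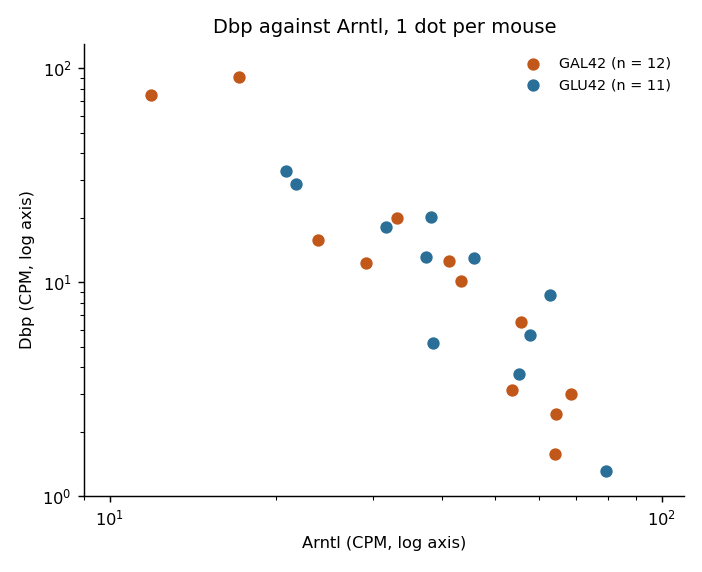
CPM of Dbp (vertical, log axis) against CPM of Arntl (horizontal, log axis) with 1 dot per mouse, coloured by diet; Dbp is lower where Arntl is higher, with r of -0.94 in GAL42 and -0.86 in GLU42 libraries, and GAL42 replicates 7 and 8 lie at the top left.

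The ratio of Dbp to Arntl CPM, which does not depend on how a library is scaled, places each mouse along this axis and is read only between libraries. It had a lowest value of 0.0245, a median of 0.268 and a highest value of 6.31 in GAL42 libraries, and 0.0165, 0.283 and 1.58 in GLU42 libraries. The whole range was 383-fold. The SD of the log2 ratio was 2.63 in GAL42 libraries and 1.95 in GLU42 libraries, and without GAL42 replicates 7 and 8 it was 1.77 in GAL42. The lowest ratio of all was in GLU42 replicate 7, the next 4 were GAL42 replicates 1, 2, 9 and 12, and the 2 highest were GAL42 replicates 8 and 7. Both diets had mice at the low end, and mice of both alternated through the values up to 1.58, above which only GAL42 replicates 7 and 8 lay. The medians nearly coincided with all libraries. Without GAL42 replicates 7 and 8 the GAL42 median was 0.165, against 0.283 in GLU42, from which no library was left out.

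A principal component analysis of the 9 tested members showed how far 1 axis described them. The first component held 72.4% of their variance, with loadings of 0.38 for Dbp and -0.37 for Arntl at its ends. The second held 12.02% and set Per1, with a loading of 0.63, apart from Nr1d1 at -0.56 and Nr1d2 at -0.34. Per1 thus varied partly apart from the REV-ERB genes, as in the pairs that did not pass.

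**Figure D3:**
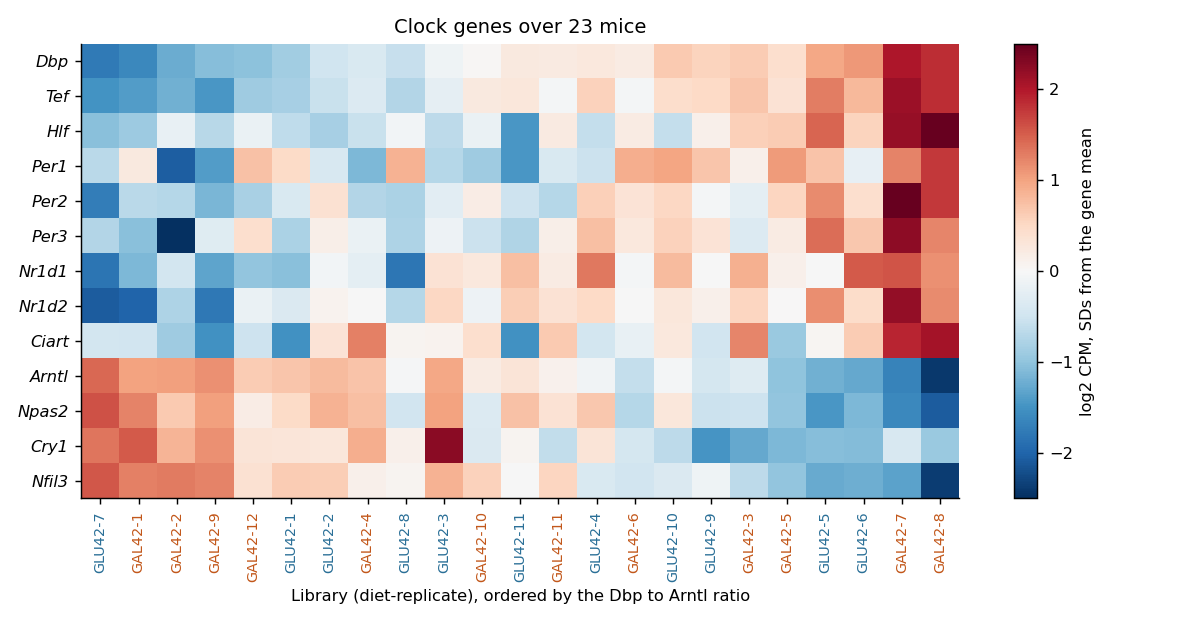
Log2 CPM of the 10 clock genes and of Tef, Hlf and Nfil3 (rows) in 23 libraries (columns, named by diet and replicate and ordered by the Dbp to Arntl ratio), as SDs from the mean of each gene; Arntl, Npas2, Cry1 and Nfil3 change colour in the opposite direction to the other genes, and both diets appear along the order.

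To set this on the footing of all genes, each gene was regressed on log2 CPM of Dbp with diet held, by edgeR's quasi-likelihood F test with Benjamini-Hochberg adjustment over 13404 genes. The slope is the change in log2 level of a gene per log2 unit of Dbp, with its standard error (SE). Of the 8 tested members other than Dbp, 7 passed, 4 with a positive and 3 with a negative slope, beside 1.54% of all genes (206 genes, of which 0.582% were positive and 0.955% negative). The members' median slope was 0.18 and that of all tested genes was -0.0011.

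Per3 had the steepest positive slope among the tested members, 0.45 ± 0.07 (SE, adjusted p = 0.000305). Per2 followed with 0.33 ± 0.04 (adjusted p = 6.03e-06), Nr1d2 with 0.25 ± 0.03 (adjusted p = 1.33e-06) and Nr1d1 with 0.18 ± 0.02 (adjusted p = 6.71e-05). The positive slopes were thus those of Per and REV-ERB genes. Arntl had a slope of -0.40 ± 0.04 (adjusted p = 3.23e-07), Npas2 of -0.23 ± 0.03 (adjusted p = 7.06e-05) and Cry1 of -0.18 ± 0.04 (adjusted p = 0.00862). Per1, at 0.19 ± 0.07, did not pass (adjusted p = 0.177). For Ciart, a fit with no count filter, over 29579 genes, gave 0.54 ± 0.14 (adjusted p = 0.0577), on few reads. All 7 members that passed did so in each of the 23 fits that left out 1 library. Without both GAL42 replicates 7 and 8, the slope of Per3 was 0.37 and no longer passed (adjusted p = 0.0907), while the other 6 passed.

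Within the GLU42 libraries alone, only Arntl of the members passed, with a slope of -0.38 (adjusted p = 0.0205), among 17 of 11983 genes called. The other slopes there did not pass but were of like size to those over all libraries, at 0.28 for Per2, 0.44 for Per3, 0.23 for Nr1d1, 0.24 for Nr1d2, -0.22 for Npas2 and -0.22 for Cry1, and that of Per1 was 0.09. Within the GAL42 libraries alone, Arntl, Npas2, Per2, Nr1d1 and Nr1d2 passed and Cry1 did not (slope -0.16, adjusted p = 0.0889), among 49 of 11778 genes called, while Per1 did not pass and Per3 was not kept by the count filter of that fit. Whether slopes differed between the diets was tested by the interaction of diet and Dbp. No member and no gene passed (0 of 13404, 0%), with 273 genes at an unadjusted p under 0.05 (2.04%). DESeq2 and limma-voom called 0 as well, and the edgeR fit without a count filter called 1.

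**Figure D4:**
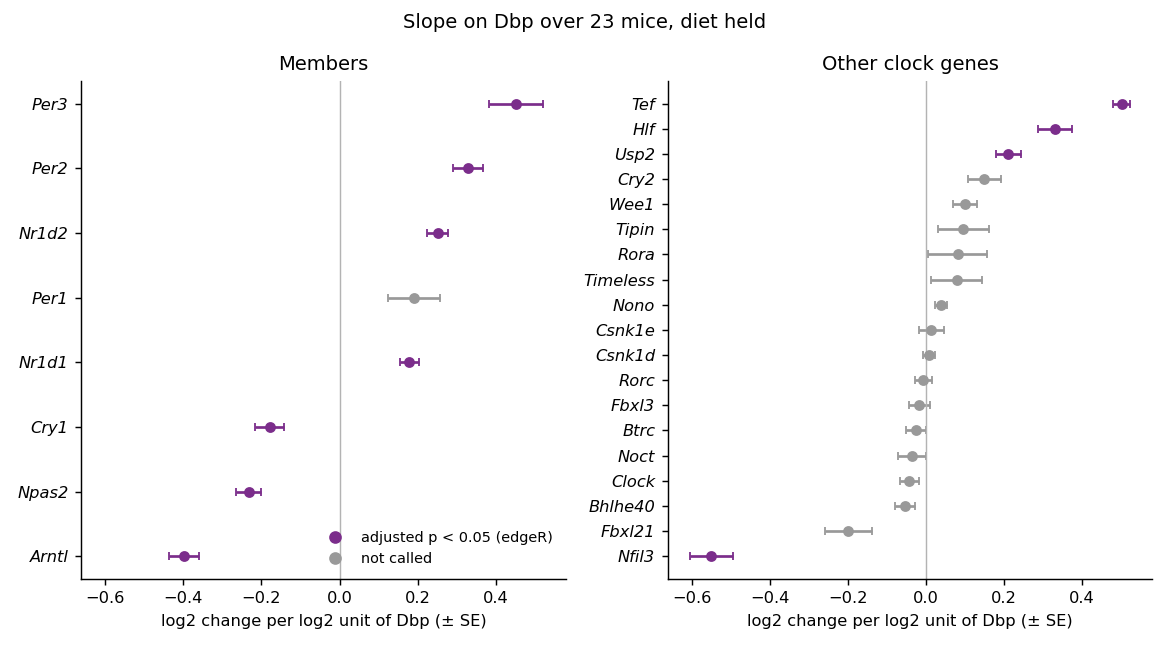
Slopes on log2 Dbp with diet held (log2 units per log2 unit of Dbp, bars are SE) for the 8 tested members other than Dbp and for 19 other clock genes, coloured where the adjusted p was under 0.05; Per3, Per2, Nr1d2 and Nr1d1 lie above 0, and Arntl, Npas2 and Cry1 below it.

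Other genes of the clock were read from a list of 20, of which 19 were tested. With the Dbp slope 3 passed as positive and 1 as negative. Tef, a D-box-binding paralog of Dbp, had a slope of 0.50 ± 0.02 (adjusted p = 1.17e-14), and Hlf, a further paralog, had 0.33 ± 0.04 (adjusted p = 4.24e-05). Usp2, a deubiquitinase under clock control in mouse tissues, had 0.21 ± 0.03 (adjusted p = 0.000227). Nfil3, which represses D-box genes and so opposes DBP, had -0.55 ± 0.06 (adjusted p = 5.40e-07). Clock, the usual partner of ARNTL, had a slope of -0.04 (adjusted p = 0.482), and Cry2 had 0.15 (adjusted p = 0.0648). Bhlhe41 was not tested, because its counts were too low.

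The genes most like Dbp in rank over the 23 libraries, outside the members, were sought among genes with a mean of at least 1 CPM. By Spearman's rho they were Tef (0.98), Tns4 (0.96), B4galnt4 (0.86), Cyp2u1 (0.84) and Slc13a2 (0.84). Those most opposed to Dbp were Nfil3 (-0.92), Tmem252 (-0.89), Fermt1 (-0.87), Stk38 (-0.85) and Aagab (-0.85). Arntl was tracked best by Nfil3 (0.96), St5 (0.93), Cdcp1 (0.93), Fermt1 (0.92) and Ypel2 (0.92), and opposed most by Tef (-0.91), Cyp2u1 (-0.89), Slc20a1 (-0.87), Hlf (-0.85) and Tns4 (-0.84). These values describe rank order in libraries that share their depth range, and carry no test. Among all 13403 other tested genes and by absolute rho to Dbp, Arntl ranked 4, Nr1d2 ranked 7 and Nr1d1 ranked 9, while Per1 ranked 788.

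Nutrient transporters and brush border genes known for daily rhythms in rodent gut were read from a list of 7, all tested. Slc2a5, which encodes the fructose transporter GLUT5, had a Dbp slope of 0.14 ± 0.03 (adjusted p = 0.00461). Slc5a1, which encodes SGLT1, the apical carrier of glucose and galactose, had 0.09 ± 0.02 (adjusted p = 0.0267). Slc9a3, the apical sodium and proton exchanger NHE3, had -0.23 ± 0.04 (adjusted p = 0.000225). The peptide transporter gene Slc15a1 had 0.12 and did not pass (adjusted p = 0.0685). In size all of these slopes were smaller than that of Arntl, the steepest negative slope among the tested members. That of Slc9a3 was about as steep as that of Npas2 (-0.23) and steeper than that of Cry1 (-0.18). Those of Slc2a5, Slc5a1 and Slc15a1 were smaller in size than that of any tested member, the smallest being Nr1d1 at 0.18. Beside the transporters, 1 of 10 enterocyte markers passed, the brush border peptidase gene Anpep, at 0.13 (adjusted p = 0.0318). No tested marker of smooth muscle, fat, blood, T cells, B and plasma cells or crypts passed. Slopes were positive for all 7 smooth muscle, 5 crypt and 3 blood markers tested, with medians of 0.07, 0.12 and 0.05. They were negative for 5 of 6 T cell, 2 of 3 B and plasma cell and 2 of 2 fat markers. The part of composition in the transporter slopes was not tested.

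Between the diets, none of the 9 tested members passed edgeR's test, nor did any gene of the 13405 (0%). Without adjustment, p was under 0.05 for 1924 genes (14.4%), none of them among the 9 tested members. That number was 886 with the slope of each library's log2 CPM on transcript length as covariate. With diet alone, the smallest adjusted p was 0.135. The count of genes that passed was 132 in DESeq2, 0 in limma-voom, 167 with sample quality weights and 219 in edgeR without GAL42 replicate 7. None of them was a member. DESeq2 gave no adjusted p for Per1, Per2 and Per3. The members' median difference was -0.0024 and that of all tested genes -0.0017. Dbp averaged 21.2 ± 29.7 CPM on GAL42 and 13.7 ± 10.4 CPM on GLU42 (SD, n = 12 and 11), and its log2 difference, GAL42 minus GLU42, was 0.63 ± 0.58 (SE, adjusted p = 0.647). The difference was 0.11 without GAL42 replicate 7 and -0.64 ± 0.46 without both replicates 7 and 8. These 2 libraries were picked for their high Dbp and left out of GAL42 only, so a fall was set in advance. The GLU42 libraries with the most Dbp, at 28.7 and 32.95 CPM, were kept. With all 23 libraries the Dbp difference was 0.0098 in limma-voom and -0.0069 with sample quality weights.

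The Per genes had differences of 0.12 ± 0.24 for Per1 (adjusted p = 0.853), 0.19 ± 0.24 for Per2 (adjusted p = 0.759) and 0.12 ± 0.36 for Per3 (adjusted p = 0.909). For Per1 and Per2 the sign turned without GAL42 replicates 7 and 8, to -0.11 and -0.23, and for Per3 it turned to -0.45. The Per genes went with Dbp across mice, so this omission favoured lower differences for them too. Nr1d1 averaged 294 ± 62.3 CPM on GAL42 and 297 ± 74.3 CPM on GLU42, a log2 difference of -0.01 ± 0.13 (adjusted p = 0.974), and Nr1d2 had -0.0024 ± 0.17 (adjusted p = 0.997). Neither REV-ERB gene had a difference as large as its SE. Arntl averaged 42.2 ± 19.3 CPM on GAL42 and 44.4 ± 17.9 CPM on GLU42, a difference of -0.08 ± 0.25 (adjusted p = 0.918). Npas2 had -0.15 ± 0.17 (adjusted p = 0.721) and Cry1 -0.04 ± 0.16 (adjusted p = 0.924). Ciart, in the edgeR fit with no count filter, had 1.11 ± 0.53 (unadjusted p = 0.0448, adjusted p = 0.399). In that fit, 3567 of 29580 genes had an unadjusted p under 0.05. Its average was 0.424 ± 0.434 CPM on GAL42 and 0.192 ± 0.128 CPM on GLU42, so Ciart rests on few reads. All 10 differences lay within a little over 2 SE of 0. Their widths do not show that the diets acted alike: for Dbp a difference of 1 log2 unit lies within 1 SE of the estimate. None of the 19 other clock genes passed, and none had an unadjusted p under 0.05.

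**Figure D5:**
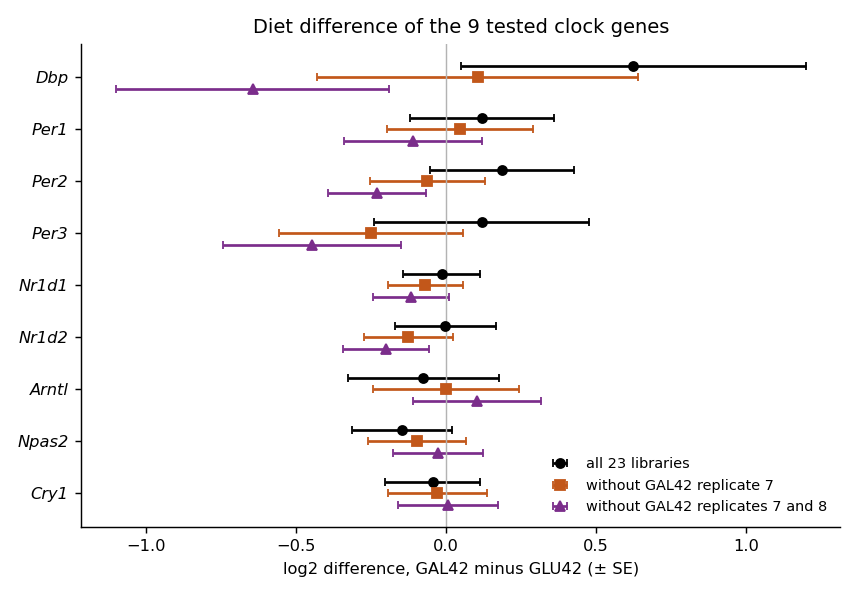
Log2 difference GAL42 minus GLU42 with SE for each of the 9 tested members, with all 23 libraries, without GAL42 replicate 7, and without GAL42 replicates 7 and 8; the Dbp difference is 0.63, 0.11 and -0.64 in these, and no gene passes the test with all 23 libraries. Replicates 7 and 8 were picked for their high Dbp.

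The only label besides diet that differs between mice is a mouse number, whose meaning the labels do not give. With diet held, 218 of 13405 genes (1.63%) followed that number by edgeR's test, 115 upward and 103 downward, and none of the 9 members did. Without adjustment, p was under 0.05 for 2655 genes (19.8%), 1 of them a member. That was Cry1 (unadjusted p = 0.0355, adjusted p = 0.216), with a change of -0.0113 log2 units per number. The called count depended on single libraries, with 35 genes without GAL42 replicate 1 and 522 without GLU42 replicate 1. Dbp itself had an r of 0.24 and a rho of 0.24 with mouse number (adjusted permutation p = 0.700 and 0.498, over 12 relations). These are straight-line and rank trends, which do not measure a run of neighbouring numbers. The 4 libraries with the highest Dbp and the lowest Arntl came from mice next to each other in number among those sampled, with Dbp to Arntl ratios of 5.32 and 6.31 in GAL42 mice 27 and 29 and of 1.32 and 1.58 in GLU42 mice 25 and 28. The sampled mice numbered 3 to 8 had low ratios, of 0.0245 and 0.0378 on GAL42 and 0.0678 to 0.140 on GLU42. Next after the high run, the ratio was 0.0438 in GAL42 mouse 34 and 0.0165 in GLU42 mouse 33. Other neighbours differed, with ratios of 0.0588 in GAL42 mouse 42 and 0.572 in GLU42 mouse 43, and of 0.603 and 0.117 in GAL42 mice 13 and 14. Mice of both diets thus shared high or low values along parts of the number, a pattern that was noticed in the data and was not tested.

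GAL42 replicates 2 and 12, which stand apart in acinar and Y-linked genes, had low Dbp, at 2.43 and 3.15 CPM. Leaving out each in turn changed no member's Dbp call. Of 12 measures of composition and depth, none passed for a relation with Dbp over the 23 libraries. The smallest adjusted permutation p for r was 0.265, for the summed adipose markers at an r of -0.47. That sum was mostly Cidec, at a mean of 117 CPM and 84.6 to 153 CPM over all libraries, and so says little of fat content. Adipoq averaged 0.427 CPM. GLU42 replicate 1 held the most Adipoq, Plin1 and Cfd, at 6.52, 3.73 and 12.7 CPM. The acinar sums, none above 1.96 CPM in GLU42 libraries, had a rho of -0.90 with Dbp within that diet and -0.23 in GAL42 libraries, and their part in the clock values was not tested.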

How the data were processed

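Raw counts of reads per gene, deposited by the authors as 1 file a mouse, were made with STAR and HTSeq on GRCm39, per the submitters' processing notes. Tool versions and strand setting are not given in the sources used. The 5 rows that name no gene held 13.5% of reads and were left out. Symbols were matched by Ensembl identifier (52083 rows). Within a diet no 2 libraries were copies (chi-square per degree of freedom 12.9 to 51.3 over 121 pairs). Replicate numbers follow deposit order and pair no mice. The labels do not say that mice came from separate litters or cages.

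Genes kept by filterByExpr (13405) were tested with edgeR 4.0.16 in R 4.3.3 (TMM, quasi-likelihood F test, Benjamini-Hochberg, threshold 0.05) for diet, for the slope on Dbp with diet held, for their interaction and for mouse number. SE is the log2 change over the root of F. Alternatives were other scalings and filters, DESeq2 1.42.0, limma 3.58.1 (voom, with and without quality weights), covariates, single diets and each library left out. Omission of GAL42 replicates 7 and 8 together, and the relations of Per1 and Dbp with hormone-responsive genes, were added after seeing the data. Those 2 libraries were picked for their high Dbp, and no GLU42 library was left out with them. Correlations used SciPy 1.17.1 and two-sided permutation tests. Named genes are all members, the passing or closest genes of fixed clock, transporter and hormone lists, and the 5 most like and most unlike Dbp or Arntl. Members and lists were chosen with earlier results of these data known. Promoter windows come from RefSeq of build GRCm38.p6, not the build of the counts.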

Additional observations from a re-analysis of the deposited data

How the results depend on the processing

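The signs of the 8 correlations and the signs of the slopes on Dbp were the same under every alternative that was run. No paired analysis was possible because replicate numbers follow deposit order and mice of the diets share no numbers.

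By diet, 0 genes passed in edgeR and in limma-voom, 132 in DESeq2, 167 with quality weights and 4 without GAL42 replicates 7 and 8, and 0 to 219 with 1 library left out, the highest without GAL42 replicate 7. No member with an adjusted p passed in any of them, and DESeq2 gave none for Per1, Per2 and Per3. By slope on Dbp, the count was 327 in DESeq2, 49 in GAL42 alone, 17 in GLU42 alone, 99 without GAL42 replicates 7 and 8, and 131 (without GAL42 replicate 8) to 270 with 1 library left out. The interaction gave 1 gene without a count filter. The mouse number trend gave 613 genes in DESeq2, 139 with mouse number as the only term, and 35 to 522 with 1 library left out. In GLU42 alone 3 of the 8 correlations passed. The SD of the log2 ratio of Dbp to Arntl lay between 2.08 and 2.33 with 1 library left out.

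The diet differences turned sign as follows. In limma-voom they were -0.117 for Per3 and 0.0011 for Nr1d1, and the Dbp difference was 0.0098. With quality weights they were -0.0069 for Dbp, -0.0250 for Per2 and -0.13 for Per3. With mouse number as covariate Nr1d2 had 0.0019. With the length slope as covariate (the slope of a library's log2 CPM on transcript length), Per1 had -0.0026, Nr1d2 0.0914, Arntl 0.26, Npas2 0.0844 and Cry1 0.22. With the Dbp to Arntl ratio as covariate Dbp had -0.10 and Per3 -0.0707. Without GAL42 replicates 7 and 8, which were picked for high Dbp, Dbp had -0.64, Per1 -0.11, Per2 -0.23, Per3 -0.45, Arntl 0.10 and Cry1 0.0072. With 1 library left out, differences ranged from 0.11 to 0.84 for Dbp, -0.0080 to 0.20 for Per1, -0.0626 to 0.27 for Per2, -0.25 to 0.30 for Per3, -0.0698 to 0.0426 for Nr1d1, -0.13 to 0.0603 for Nr1d2, -0.16 to 0.0419 for Arntl, -0.21 to -0.07 for Npas2 and -0.11 to 0.0674 for Cry1. The cause was not tested. Depth limits Ciart, at 0 to 20 reads per library, and the GAL42 or GLU42 fits hold 12 or 11 libraries.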

Other observations

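Besides the clock, 2 groups of hormone- and stimulus-responsive genes were set beside it, in 30 relations with Per1 or Dbp that were added after seeing the data. The metallothionein genes, which respond to zinc and to glucocorticoids, were higher where Dbp was higher. Mt2 had a slope on Dbp of 0.63 ± 0.13 (SE, adjusted p = 0.00878) and Mt1 of 0.34 ± 0.08 (adjusted p = 0.0149), and these 2 were the only ones of 7 tested glucocorticoid-responsive genes to pass edgeR's test. Over the 23 libraries, Dbp had an r of 0.72 and a rho of 0.70 with Mt2 (adjusted permutation p = 0.0036 and 0.009) and an r of 0.65 and a rho of 0.66 with Mt1 (adjusted p = 0.0119 and 0.0144). Without the 2 libraries farthest from the median, r was 0.65 for Mt2 and 0.62 for Mt1. Within diets, rho was 0.55 in GAL42 libraries and 0.88 in GLU42 libraries for Mt2, and 0.46 and 0.87 for Mt1. The slope on Dbp was lower in GAL42 than in GLU42 libraries, by -0.81 ± 0.24 for Mt2 and -0.42 ± 0.13 for Mt1. By edgeR's interaction test the unadjusted p was 0.00235 and 0.00427, and neither passed after adjustment.

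Per1, the member least tied to Dbp, ran against Jun, which encodes an immediate early transcription factor. Its r with Jun was -0.62 and its rho -0.63 (adjusted permutation p = 0.0172 and 0.0149), with rho of -0.69 in GAL42 libraries and -0.65 in GLU42 libraries, and an r of -0.62 without the 2 libraries farthest from the median. With Fkbp5, a glucocorticoid-induced gene, Per1 had an r of 0.55 (adjusted p = 0.0481) and a rho of 0.53 (adjusted p = 0.0699), so the call depended on the measure. None of the 8 immediate early genes tested had a called slope on Dbp.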
